A study of Mus musculus with 583 samples.

Results

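The genes described here encode the nuclear subunits of the 5 oxidative phosphorylation complexes. They were taken from the count table by symbol: every protein-coding gene in GENCODE M21 that begins with Nduf and a letter a, b, c, s or v with a number, is 1 of Sdha to Sdhd, or begins with Uqcr, Cox4 to Cox8 or Atp5. The rule found 84 of the 38924 mouse genes, of which 37 belong to complex I, 4 to complex II, 8 to complex III, 18 to complex IV and 17 to complex V. It used names and no measured value, and 10 processed pseudogenes with matching symbols stayed out. All cells came from J1, a mouse embryonic stem cell line, cultured in 2i/LIF, a medium whose kinase inhibitors and cytokine keep the naive state. The labels name no mutation and no treatment, and the groups are library preparation methods.

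The study prepared these cells with 6 single-cell RNA-seq methods, each in replicates A and B, which gave 12 libraries and 583 cells. Smart-seq / C1 (69 and 61 cells in A and B, captured on the Fluidigm C1 chip) and Smart-seq2 (80 and 77 cells) read along whole transcripts and were counted as reads. CEL-seq2 (34 and 37 cells, also on the C1), MARS-seq (29 and 36 cells), Drop-seq (42 and 34 barcodes, from droplets) and SCRB-seq (39 and 45 cells, sorted by FACS) tag the 3' end, and their values are counts of unique molecular identifiers (UMIs). Amplification is by in vitro transcription (IVT) in CEL-seq2 and MARS-seq and by PCR in Drop-seq and SCRB-seq. The labels do not say that replicates came from separate cultures. The p-values therefore measure only the spread between replicate libraries of a method, which may be technical. The spread among methods averaged on the same side of a comparison does not enter them.

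Complexes I to IV form the respiratory chain of the inner mitochondrial membrane. Complex I takes electrons from NADH and complex II takes them from succinate, as a step of the citric acid cycle. Both hand them through ubiquinone to complex III, cytochrome c and complex IV, which reduces oxygen. Proton pumping by complexes I, III and IV drives the rotor of complex V, the ATP synthase. Complex II is encoded in the nucleus alone, whereas the other complexes also hold subunits encoded by mitochondrial DNA, so their assembly draws on both genomes. Naive mouse embryonic stem cells are known to respire as well as to run glycolysis.

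The 4 full-length libraries held 17630767 to 34984056 mouse reads and the 8 tag libraries 583302 to 2784441 UMIs. Levels below are CPM, a gene's count relative to all mouse gene counts of the library, with TMM scaling, on counts summed over the cells of a library. The naive markers Pou5f1, Sox2, Nanog, Zfp42, Esrrb and Klf4 summed to 1720 to 2880 CPM in every library, but single markers varied more. Over the libraries Pou5f1 ran from 36.3 to 639 CPM, Sox2 from 73.6 to 1220 CPM and Nanog from 303 to 865 CPM. Zfp42 ran from 92.0 to 1560 CPM, Esrrb from 87.1 to 437 CPM and Klf4 from 33.1 to 343 CPM. The fibroblast markers summed to 0.445 to 39.7 CPM and the primitive endoderm markers to 0 to 21.9 CPM, both highest in CEL-seq2 A. Of the fibroblast sum in CEL-seq2 A, 32.9 CPM came from Thy1, and Postn was at 0 in all 12 libraries. Cell names repeat between replicates A and B of every method but Drop-seq, for instance 66 in Smart-seq2. In Drop-seq, 29 of the 42 barcodes of A and 12 of the 34 of B lay 1 base from another barcode of the same library, so some may be parts of 1 cell.

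Nearly all subunits were seen in these cells, and the ATP synthase and cytochrome c oxidase held the highest. Of the 84 members, 83 had a count somewhere, and 79 to 83 had one in any given library. Cox8b, the heart and muscle form of subunit 8, had none. 80 members passed the filter on low counts, and Cox6a2, Cox7b2, Cox8b and Cox8c, forms known from muscle or testis, did not. Per length of the principal transcript, the full-length libraries put Atp5b, the catalytic beta subunit of the ATP synthase, highest, at 1448 ± 421 CPM per kilobase (SD, n = 4). Cox4i1, the common form of subunit 4 of cytochrome c oxidase, came next at 1390.0 ± 336, so that these neighbours did not differ beyond their spread. In the tag libraries Atp5b and Cox4i1 also stood highest, at 1238 ± 268 and 1078 ± 487 CPM (SD, n = 8), again within their spread.

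In cells thinned to 10000 counts, the median member was seen in 63.1% to 93.3% of the cells of a library, lowest in Smart-seq / C1 B and highest in SCRB-seq B. Atp5b was seen in every thinned cell of all 12 libraries, and Cox4i1 in at least 94.6%. The least abundant member of each complex with a count differed widely. Sdhd, Uqcrfs1 and Ndufa4l2 averaged 168.9, 182 and 24.7 CPM over the 12 libraries, and Atp5g2 averaged 5.40 CPM.

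**Figure D1:**
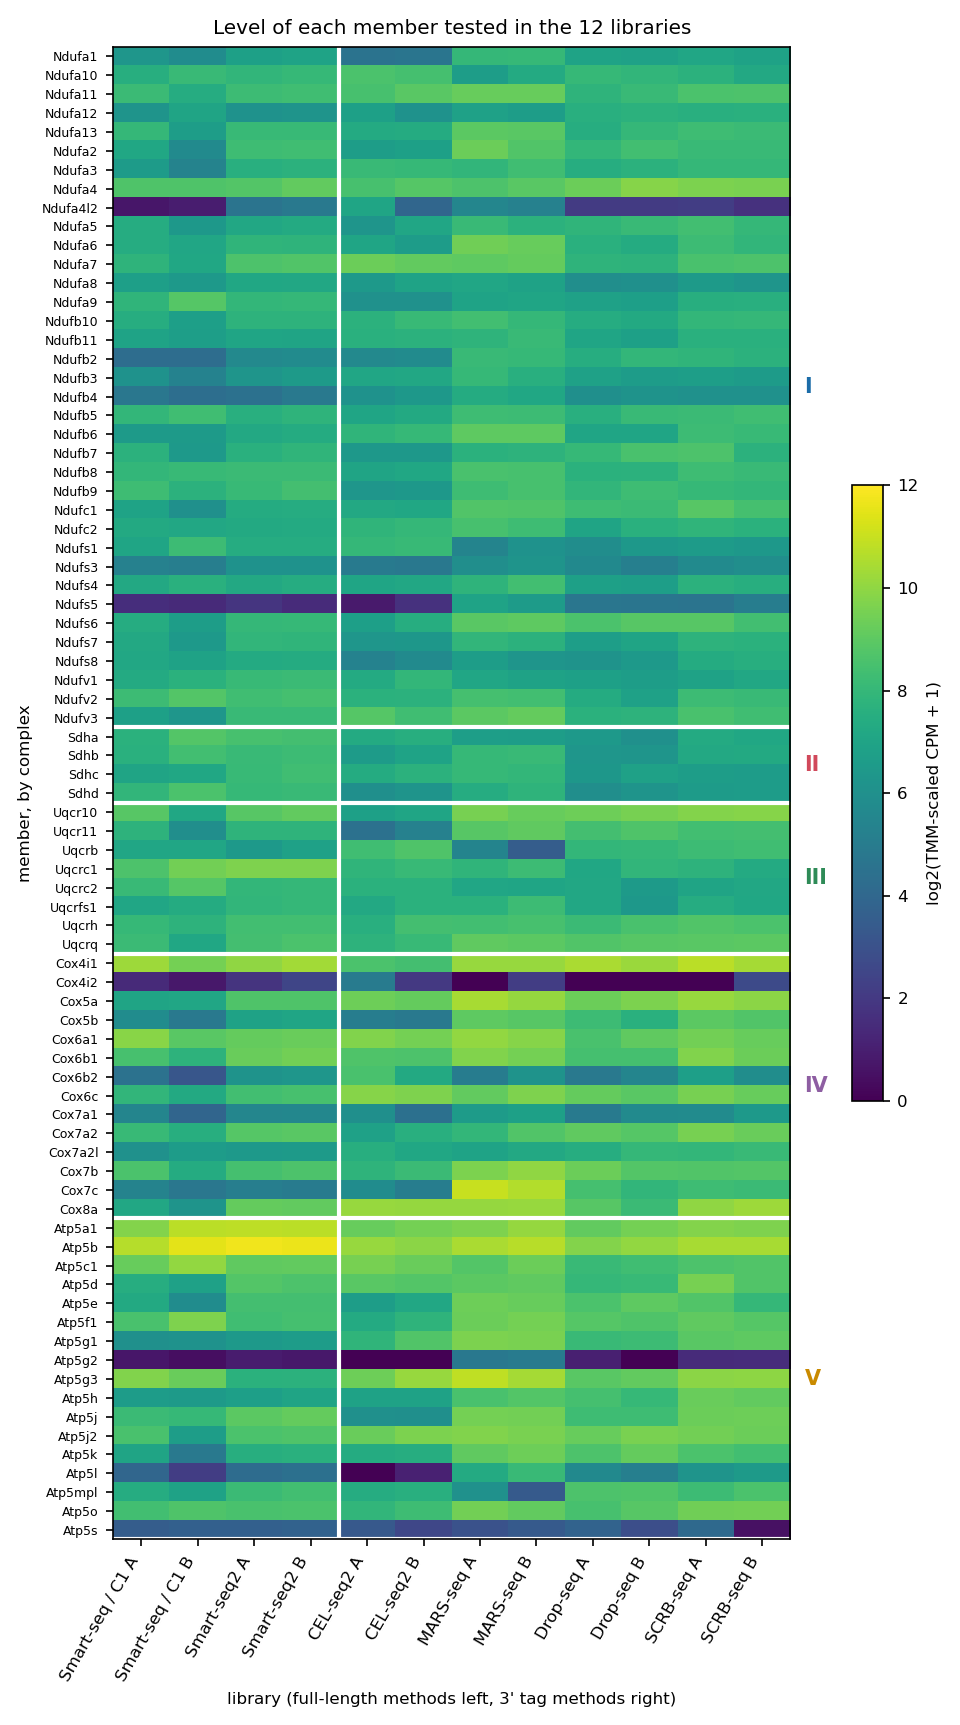
Levels of 79 of the 80 members tested (rows, grouped by complex) in the 12 libraries (columns, full-length methods left of the white line), as colour on a log2(TMM-scaled CPM + 1) scale. Ndufs5, Cox7c and Atp5l are darker in the full-length and CEL-seq2 columns than in those of MARS-seq, and Cox4i2 is brightest in CEL-seq2 A.

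As a share of all mouse counts the members together took 1.73% to 2.99% of reads in full-length libraries, with a mean of 2.44% ± 0.608 (SD, n = 4). In tag libraries they took 1.82% to 3.08% of UMIs, with a mean of 2.49% ± 0.516 (SD, n = 8), so the ranges overlapped. What differed was the split among complexes. Complex II made up 5.05% ± 1.16 of the members' counts in full-length libraries and 2.07% ± 0.562 in tag libraries, and the lowest full-length library (4.03%) lay above the highest tag library (2.94%). Complex IV made up 17.9% ± 4.10 in full-length and 27.0% ± 2.02 in tag libraries, with 11.9% to 20.9% in full-length against 23.6% to 28.7% in tag libraries.

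Complex V took 36.6% ± 4.69 of member counts in full-length and 30.4% ± 1.01 in tag libraries, with 32.7% to 43.3% in full-length against 28.8% to 31.5% in tag libraries. The ranges of complexes I and III overlapped. Complex I took 29.4% ± 1.22 and 31.1% ± 1.03, and complex III took 11.1% ± 0.579 and 9.47% ± 1.64. Longer transcripts yield more reads where whole transcripts are read, so the full-length shares were also taken per length of the principal transcript. Complex IV was then at 24.5% ± 3.86 of the members' length-scaled reads and complex II at 2.89% ± 1.07, complex V was at 27.9% ± 3.96, and all 3 ranges overlapped those of the tag libraries. As a share of all mouse genes, the difference of complex IV turned from -0.228 percentage points to 0.614 percentage points with this scaling, full-length less tag. Smart-seq / C1 B stood apart on either scale, with 6.71% of member reads in complex II and 43.3% in complex V, against 4.03% and 32.7% in Smart-seq / C1 A.

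**Figure D2:**
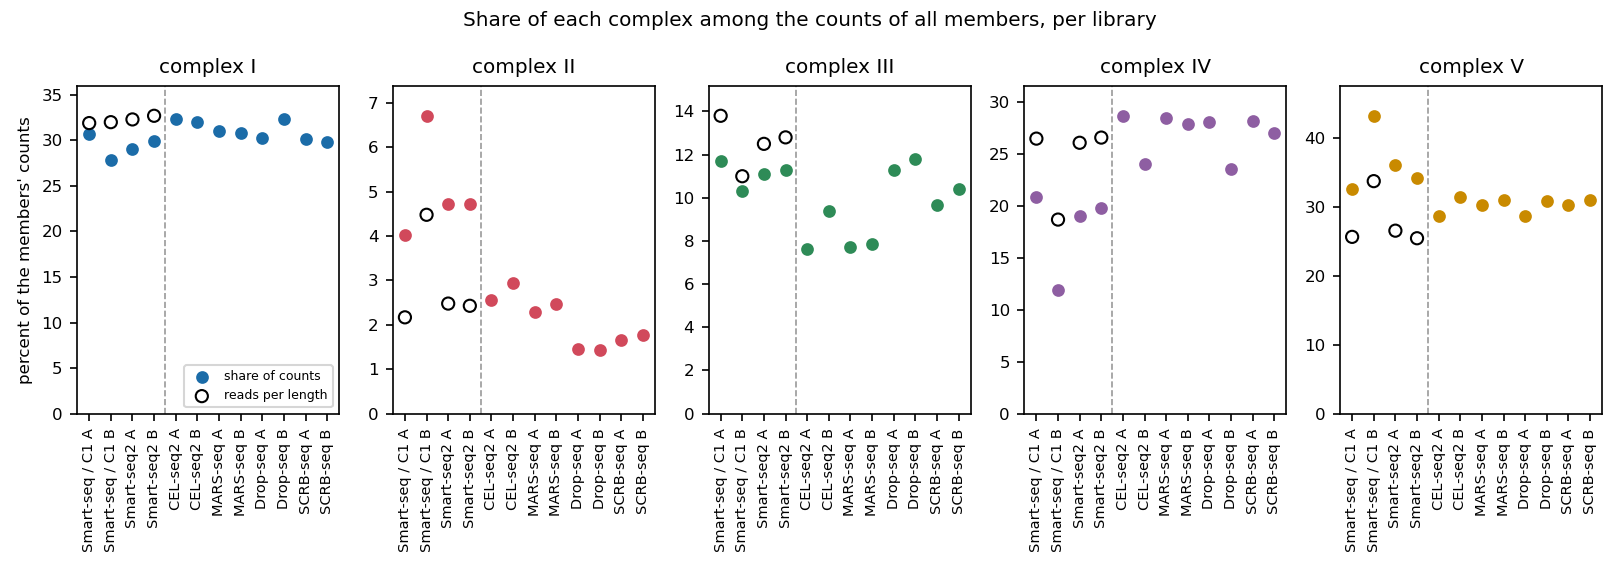
Share of each complex among the counts of all members (y axis, percent) in each library, full-length methods left of the dashed line. Filled points are shares of counts and open circles shares of reads per length of the principal transcript; complex II is higher and complex IV lower in the full-length libraries before that scaling.

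The broadest comparison sets the full-length methods, counted as reads, against the 3' tag methods, counted as UMIs. Transcript coverage, the unit counted and depth differ together between them, so their parts cannot be told apart. Of the 80 members tested, 14 were higher and 33 lower in the full-length methods at an adjusted p below 0.05 (edgeR's quasi-likelihood test, Benjamini-Hochberg adjustment over 14293 genes), and 33 did not pass. Over all genes tested, 25.6% were higher and 23.2% lower. The median log2 fold change of the members was -0.32, against 0.21 over all genes. The full-length and tag libraries did not overlap for 12 of the 80 members, and for 2498 of the 14293 genes tested. Fold changes here average the methods of each side on the log2 scale, with standard errors (SE). The higher members included core subunits of complex I, 3 of 4 subunits of complex II, both large core proteins of complex III and 3 of 5 subunits of the F1 part of the ATP synthase. The lower ones included 16 of the 30 Nduf members outside the catalytic core of complex I and 8 of 14 subunits of complex IV.

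In complex I, 6 members were higher and 16 lower in full-length libraries, with a median log2 fold change of -0.38. Ndufa9, an accessory subunit beside the quinone site, had 229 and 455 CPM in Smart-seq / C1 A and B and 243 and 254 CPM in Smart-seq2 A and B, against 65.8 to 190.3 CPM in the 8 tag libraries (median 120.0) (log2 fold change 1.34 ± 0.20, adjusted p = 2.02e-05). The full-length libraries of Ndufa9 lay above all tag libraries. Higher members also included the core subunits Ndufs1 (0.97), Ndufs8 (0.76), Ndufv1 (0.70) and Ndufv2 (0.59), given as log2 fold changes.

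Ndufb2, a membrane accessory subunit, was lower, at 18.5 and 18.4 CPM in Smart-seq / C1 A and B and 49.3 and 54.5 CPM in Smart-seq2 A and B, against 48.9 to 283 CPM in the 8 tag libraries (median 217) (log2 fold change -2.36 ± 0.21, adjusted p = 3.47e-08). Ndufs5, another accessory subunit, had 1.99 and 1.71 CPM in Smart-seq / C1 A and B and 2.62 and 1.74 CPM in Smart-seq2 A and B, against 0.844 to 125 CPM in the 8 tag libraries (median 24.8) (log2 fold change -3.25 ± 0.37, adjusted p = 1.06e-06). CEL-seq2 was the low tag method for both genes, at 48.9 and 53.5 CPM for Ndufb2 and 0.844 and 2.27 CPM for Ndufs5, within or below the full-length range. The core subunits Ndufs3 and Ndufs7 did not pass, with log2 fold changes of 0.10 and 0.20.

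Complex II oxidises succinate, and it was the only complex with no lower member in this comparison, with 3 of 4 higher. Sdhd, a membrane anchor, had 234 and 389 CPM in Smart-seq / C1 A and B and 266 and 282 CPM in Smart-seq2 A and B, against 60.6 to 225 CPM in the 8 tag libraries (median 83.8) (log2 fold change 1.60 ± 0.19, adjusted p = 1.74e-06). Sdha, the flavoprotein that binds succinate, had 200.2 and 439.9 CPM in Smart-seq / C1 A and B and 359 and 339 CPM in Smart-seq2 A and B, against 63.1 to 185 CPM in the 8 tag libraries (median 124) (log2 fold change 1.49 ± 0.21, adjusted p = 1.17e-05). Both were higher in each full-length library than in any tag library. Sdhb, the iron-sulfur subunit, had 197 and 331 CPM in Smart-seq / C1 A and B and 283 and 294 CPM in Smart-seq2 A and B, against 74.5 to 280.2 CPM in the 8 tag libraries (median 136) (log2 fold change 1.02 ± 0.19, adjusted p = 0.00023). Sdhc, the other anchor, had 127 and 141 CPM in Smart-seq / C1 A and B and 268 and 317 CPM in Smart-seq2 A and B, against 81.5 to 258 CPM in the 8 tag libraries (median 141), and did not pass (log2 fold change 0.43 ± 0.18, adjusted p = 0.06). Among tag methods MARS-seq held the highest levels of Sdhb, Sdhc and Sdhd.

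Sdhb and Sdhd hold promoter letters for which respiratory genes are known. Their promoters are given as RefSeq places them, 250 bases before the transcription start to 50 after it. In the following sequences of GRCm38.p6, capitals mark the NRF1 letters GCATGCGC, the GABPA letters CCGGAAG and the ERR letters TCAAGGTCA, on either strand.
Sdhb promoter (chr4:140961021-140961320, plus strand): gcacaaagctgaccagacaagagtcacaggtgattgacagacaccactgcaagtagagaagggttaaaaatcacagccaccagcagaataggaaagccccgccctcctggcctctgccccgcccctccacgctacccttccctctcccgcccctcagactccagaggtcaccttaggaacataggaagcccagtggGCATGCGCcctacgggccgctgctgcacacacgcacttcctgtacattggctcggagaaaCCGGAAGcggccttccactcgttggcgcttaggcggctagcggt
Sdhd promoter (chr9:50603800-50604099, minus strand): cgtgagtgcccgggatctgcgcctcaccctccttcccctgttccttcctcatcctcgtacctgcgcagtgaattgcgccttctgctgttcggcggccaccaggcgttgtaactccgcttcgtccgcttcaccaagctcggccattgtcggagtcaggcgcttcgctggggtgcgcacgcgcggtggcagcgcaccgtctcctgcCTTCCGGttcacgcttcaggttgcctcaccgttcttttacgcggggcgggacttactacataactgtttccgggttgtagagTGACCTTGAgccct

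Sdhb holds 1 NRF1 and 1 GABPA match, and Sdhd 1 GABPA and 1 ERR match, each without overlap. Of the 84 members, 66 had an entry in the promoter table. The NRF1 letters lay in 10 of those 66 promoters (15.2%), against 3.05% of the 27025 genes in the table. The GABPA letters lay in 16 (24.2%, against 9.93%), the YY1 letters AAGATGGCG in 7 (10.6%, against 1.64%) and the ERR letters in 2 (3.03%, against 0.466%). In all, 28 members held at least 1 of the 4 motifs, and Sdhb, Sdhd, Uqcr11, Cox6a1, Atp5j, Atp5k and Atp5l held more than 1. Of those with more than 1, Sdhb and Sdhd were higher and Atp5k and Atp5l lower in full-length libraries, and the others did not pass. A match of letters is a description and not a bound site.

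In complex III, 2 of 8 members were higher and 1 was lower. Uqcrc1, a core protein, had 403 and 692 CPM in Smart-seq / C1 A and B and 820.2 and 829.9 CPM in Smart-seq2 A and B, against 141 to 300.2 CPM in the 8 tag libraries (median 229.9) (log2 fold change 1.61 ± 0.20, adjusted p = 3.06e-06). Uqcrc2, its partner, had 281 and 452 CPM in Smart-seq / C1 A and B and 244 and 252 CPM in Smart-seq2 A and B, against 92.3 to 204 CPM in the 8 tag libraries (median 141) (log2 fold change 1.05 ± 0.19, adjusted p = 0.000197). Neither gene's full-length libraries overlapped its tag libraries. Uqcrq, a small subunit, was the 1 lower member (log2 fold change -0.55 ± 0.20, adjusted p = 0.0348), a call that ended in 9 of the 12 fits without 1 library, with an adjusted p of up to 0.407 without Smart-seq2 A. The Rieske protein Uqcrfs1 (0.20), Uqcrb (-0.47), the hinge protein Uqcrh (-0.25), Uqcr10 (-0.25) and Uqcr11 (-0.26) did not pass, by log2 fold changes.

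Complex IV had 8 lower and 0 higher members among 14 tested, with a median log2 fold change of -0.93. Cox7c, a small subunit near the outer rim of the enzyme, had 39.6 and 25.9 CPM in Smart-seq / C1 A and B and 34.3 and 31.1 CPM in Smart-seq2 A and B, against 33.0 to 2065 CPM in the 8 tag libraries (median 299) (log2 fold change -3.15 ± 0.24, adjusted p = 5.33e-09). CEL-seq2 was again near the full-length libraries, at 56.5 and 33.0 CPM, whereas MARS-seq reached 2065 and 1593 CPM. Cox5a, a matrix-side subunit, had 126 and 137 CPM in Smart-seq / C1 A and B and 419 and 411 CPM in Smart-seq2 A and B, against 575 to 1375 CPM in the 8 tag libraries (median 881) (log2 fold change -1.89 ± 0.19, adjusted p = 2.26e-07). Each full-length library of Cox5a lay below every tag library.

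The other lower members of complex IV were Cox8a (-1.77), Cox5b (-1.49), Cox6c (-1.38), Cox6b2 (-1.25), Cox7a2l (-1.15) and Cox7b (-0.59), as log2 fold changes. Cox4i1 had 1226 and 709 CPM in Smart-seq / C1 A and B and 1042 and 1276 CPM in Smart-seq2 A and B, against 335 to 1748 CPM in the 8 tag libraries (median 1157), and did not pass (log2 fold change 0.16 ± 0.19, adjusted p = 0.529).

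The ATP synthase showed both directions, 3 higher and 8 lower of 17. Atp5b had 1612 and 2866 CPM in Smart-seq / C1 A and B and 3414 and 3208 CPM in Smart-seq2 A and B, against 868 to 1665 CPM in the 8 tag libraries (median 1260.4) (log2 fold change 1.16 ± 0.19, adjusted p = 5.32e-05). Atp5a1, the alpha subunit that alternates with beta in the catalytic head, had 887 and 1751 CPM in Smart-seq / C1 A and B and 1809 and 1709 CPM in Smart-seq2 A and B, against 547 to 1088 CPM in the 8 tag libraries (median 773) (log2 fold change 0.996 ± 0.20, adjusted p = 0.000441). For both genes Smart-seq / C1 A was the lowest full-length library and lay within the tag range. Atp5c1, the central shaft, was the remaining higher member (log2 fold change 0.55 ± 0.19, adjusted p = 0.0246), while the shaft's small partners Atp5d (-0.83) and Atp5e (-0.80) were lower.

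Atp5g1, 1 of 3 genes for the c subunit of the rotor ring, was lower, at 64.9 and 69.3 CPM in Smart-seq / C1 A and B and 88.7 and 97.4 CPM in Smart-seq2 A and B, against 232 to 797 CPM in the 8 tag libraries (median 456) (log2 fold change -2.47 ± 0.22, adjusted p = 2.83e-08). Atp5h, of the peripheral stalk, had 98.4 and 93.2 CPM in Smart-seq / C1 A and B and 109 and 129 CPM in Smart-seq2 A and B, against 118 to 619.9 CPM in the 8 tag libraries (median 363) (log2 fold change -1.52 ± 0.19, adjusted p = 3.20e-06). All full-length libraries of Atp5g1 lay below all tag libraries. The membrane subunits Atp5k (-1.59), Atp5j2 (-1.21) and Atp5l (-1.08) and the c gene Atp5g3 (-1.25) were lower as well.

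These calls leaned on the Smart-seq2 libraries: the 33 lower members were 19 without Smart-seq2 A and 20 without Smart-seq2 B, and 32 of the 47 calls held whichever 1 library was left out. Among members named so far, the calls of Cox7b, Atp5l and Atp5e ended in 9, 9 and 4 of the 12 fits without 1 library (adjusted p up to 0.356, 0.886 and 0.149), and that of Atp5c1 in 4 (up to 0.136, without Smart-seq / C1 B). The calls of Atp5d and Cox6b2 ended in 2 and 1 (up to 0.0847 and 0.0542). In limma on the means of log2(CPM + 1) over cells, which weighs cells equally, 23 members were higher and 17 lower, against 43.8% and 18.8% of all genes, while the median of all genes stood at 0.57. Complex II was then 4 higher and 0 lower and complex IV 0 higher and 5 lower, but complex I turned to 11 higher and 6 lower.

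**Figure D3:**
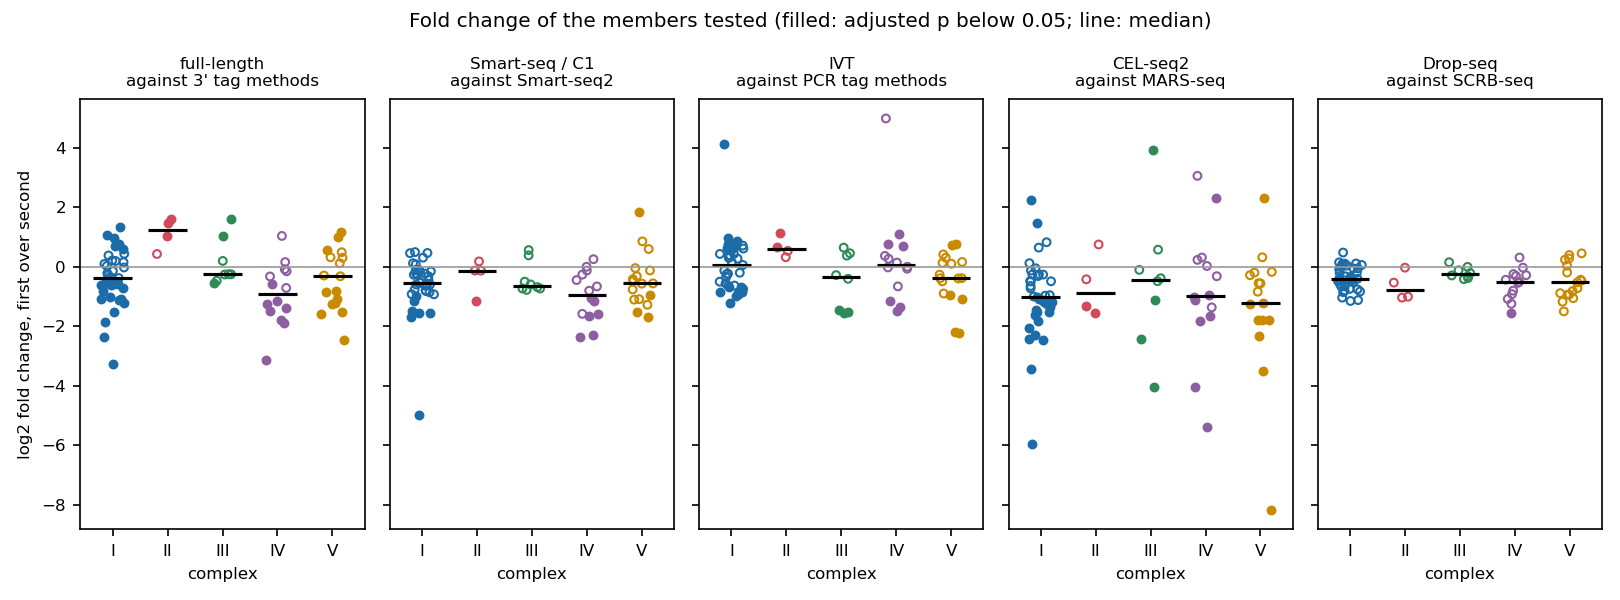
Log2 fold change (y axis, first over second) of the members tested in 5 comparisons, by complex; filled points passed at an adjusted p below 0.05 and lines are medians. Atp5g2 in CEL-seq2 against MARS-seq and Cox4i2 in Drop-seq against SCRB-seq are not drawn because a side was at 0; complex II lies above 0 in the left panel, and most members lie below 0 in CEL-seq2 against MARS-seq.

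Transcript length moved with these differences. Members whose principal transcript has at most 600 nt held 10 lower and 0 higher calls among 19, and those of 600 to 1000 nt held 14 lower and 0 higher among 29. From 1000 to 2000 nt the members held 11 higher and 7 lower calls among 25, and above 2000 nt 3 higher and 2 lower among 7. Among all protein-coding genes tested the same order was seen. Up to 600 nt, 6 were higher and 109 lower of 165, and from 600 to 1000 nt 46 and 175 of 579. From 1000 to 2000 nt they were 736 and 332 of 2389, and above 2000 nt 2749 and 680 of 8235. Across the 80 members the Spearman correlation of fold change and length was 0.41, a description over genes that share libraries, and across 14156 genes it was 0.44.

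Set against the trend of all genes of equal length, non-coding ones included, the members lay above it, by a median of 1.42 on the log2 scale, where the plain median was -0.32. Beside protein-coding genes they lay higher at up to 600 nt and slightly lower at each greater length. Members of up to 600 nt had a median log2 fold change of -0.58, against -1.78 over the 165 protein-coding genes and -5.46 over all 1533 genes of that length. From 600 to 1000 nt the median was -0.39 for members, against -0.31 over protein-coding and -2.33 over all genes. From 1000 to 2000 nt it was 0.20 for members and 0.40 over protein-coding genes, and above 2000 nt 0.43 and 0.55. Complex II lay 1.28 above the trend of all genes, complex I 1.20, complex V 1.47, complex IV 2.33 and complex III 2.44, as medians. Ndufb2 and Atp5g1 lay below it, and their annotated principal transcripts of 4371 and 4715 nt are the longest among the members.

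**Figure D4:**
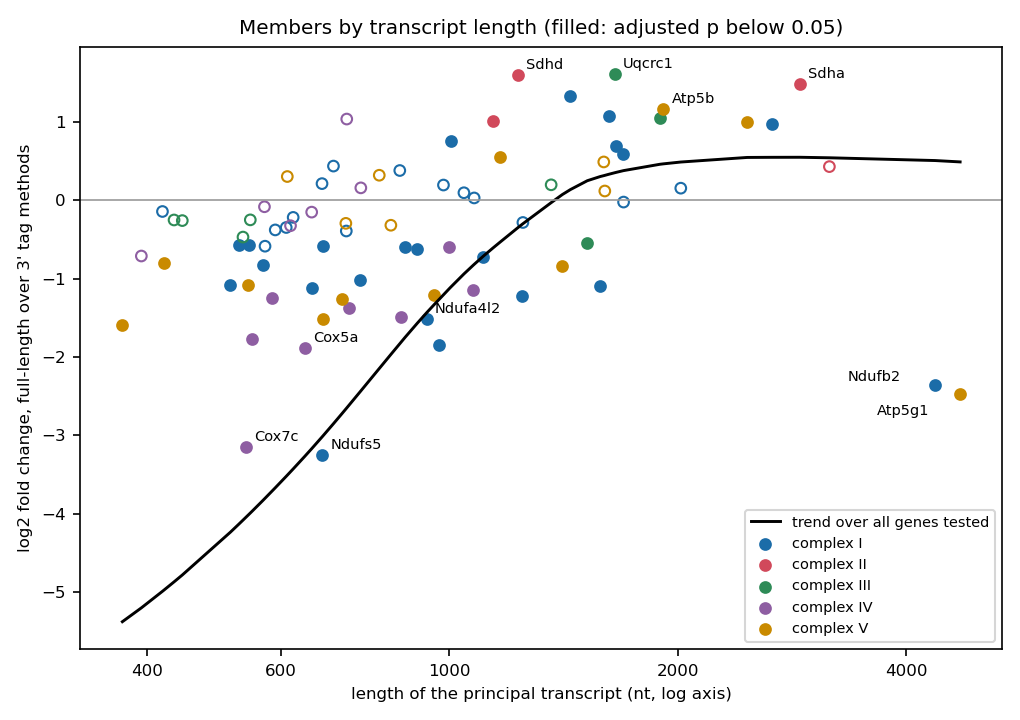
Log2 fold change of the members, full-length over 3' tag methods (y axis), against the length of the principal transcript (x axis, nt, log scale), coloured by complex and filled where the adjusted p was below 0.05. The line is the lowess trend over all genes tested, non-coding ones included. Members under 1000 nt hold no higher call. Of protein-coding genes, 6 of 165 up to 600 nt and 46 of 579 from 600 to 1000 nt were higher.

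Many subunit genes have processed copies in the mouse genome, and the 3' ends of some recur there. In 15 members at least 50% of the 31-base words in the last 300 nt of the principal transcript also lay elsewhere in GRCm38, and in 35 none did. Of those 15, 9 were lower and 0 higher in full-length libraries, against 24 lower and 14 higher among the other 65. Levels of the 15 are uncertain, since the authors' rule for reads that match several places is not given in the sources used here. They include Atp5g2, Atp5h, Atp5j, Atp5l, Atp5o, Cox6c, Cox7c, Ndufb11, Ndufs3, Ndufs5 and Uqcrb, which have annotated copies with counts. Counts on annotated copies were themselves method-bound. Gm10175, which shares 98.5% of those words with Atp5g2, was at 0.214 to 0.712 CPM in full-length and 73.9 to 170 CPM in tag libraries. BC002163, a copy of Ndufs5 by 57.8% of the words, was at 15.2 to 38.6 CPM in full-length and 134 to 378 CPM in tag libraries. Gm12338, a copy of Cox7c by 55.9%, was at 4.24 to 6.50 CPM in full-length and 207 to 543 CPM in tag libraries. With the counts of 19 such copies added to their 11 members, an alternative chosen after seeing the data, the calls were 14 higher and 37 lower.

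The rotor ring has such a family. Its c subunit comes from Atp5g1, Atp5g2 and Atp5g3, whose last 75 codons encode the same amino acids by 3 different strings of letters. The final 90 bases of each coding sequence, with the stop codon, are shown to let the genes be told apart, with capitals where the 3 do not all share the base (GRCm38 sense strand).
Atp5g1 (chromosome 11): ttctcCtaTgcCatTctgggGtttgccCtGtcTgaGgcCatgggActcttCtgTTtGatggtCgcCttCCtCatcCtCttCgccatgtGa
Atp5g2 (chromosome 15): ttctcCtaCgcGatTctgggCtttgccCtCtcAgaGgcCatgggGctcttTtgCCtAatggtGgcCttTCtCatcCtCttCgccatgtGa
Atp5g3 (chromosome 2): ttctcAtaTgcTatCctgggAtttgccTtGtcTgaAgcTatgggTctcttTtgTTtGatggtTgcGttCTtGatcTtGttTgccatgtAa

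Over the 228 bases compared, Atp5g1 and Atp5g2 were identical at 85.1%, Atp5g1 and Atp5g3 at 79.8%, and Atp5g2 and Atp5g3 at 78.5%. Within the shown stretch they differed at 12, 17 and 23 bases in that order. Atp5g3 had 857 and 618 CPM in Smart-seq / C1 A and B and 199.8 and 207 CPM in Smart-seq2 A and B, against 494 to 1872 CPM in the 8 tag libraries (median 969), and was lower in full-length libraries (log2 fold change -1.25 ± 0.21, adjusted p = 8.06e-05). Its Smart-seq / C1 libraries lay within the tag range and its Smart-seq2 libraries below it. Atp5g2 had 0.664 and 0.381 CPM in Smart-seq / C1 A and B and 0.858 and 0.701 CPM in Smart-seq2 A and B, 26.9 and 30.6 CPM in MARS-seq and 0 to 1.86 CPM in the other 6 tag libraries. All 31-base words of its last 300 nt recur elsewhere in the genome, so low levels of Atp5g2 and reads placed on a copy cannot be told apart.

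Between the full-length methods, Smart-seq / C1 against Smart-seq2, 1 of the 80 members was higher and 17 were lower, and 62 did not pass. Over all genes tested 8.75% were higher and 6.81% lower, with a median log2 fold change of 0.11, against -0.57 for the members. Complex IV had 6 lower members of 14, complex I 7 of 37, complex V 3 of 17, complex II 1 of 4 and complex III 0 of 8. Atp5g3 was the higher one, at 857 and 618 CPM in Smart-seq / C1 A and B, against 199.8 and 207 CPM in Smart-seq2 A and B (log2 fold change 1.86 ± 0.33, adjusted p = 0.00115). The libraries of the methods did not overlap for this gene, as for 8790 of the 14293 genes tested.

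Cox8a, the common form of subunit 8, fell to 147 and 74.0 CPM in Smart-seq / C1, against 579.9 and 561 CPM in Smart-seq2 (log2 fold change -2.37 ± 0.36, adjusted p = 0.000339). Cox5a was at 126 and 137 CPM in Smart-seq / C1 and 419 and 411 CPM in Smart-seq2 (log2 fold change -1.65 ± 0.29, adjusted p = 0.00112). Ndufv3, a small subunit of the NADH-binding arm, was at 112 and 78.8 CPM in Smart-seq / C1 and 275 and 281 CPM in Smart-seq2 (log2 fold change -1.55 ± 0.31, adjusted p = 0.00262). In each of these the Smart-seq / C1 libraries lay below both Smart-seq2 libraries, by more than the gap between replicates.

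Atp5d fell in Smart-seq / C1 (log2 fold change -1.52 ± 0.33, adjusted p = 0.00441), a call lost without Smart-seq2 A (adjusted p = 0.0563). Atp5e fell as well (log2 fold change -1.68 ± 0.42, adjusted p = 0.0109), and lost the call in 3 fits that left out 1 library (adjusted p up to 0.0646, without Smart-seq2 B). Sdhc was at 127 and 141 CPM in Smart-seq / C1 and 268 and 317 CPM in Smart-seq2 (log2 fold change -1.13 ± 0.30, adjusted p = 0.0172), lost in 2 such fits (adjusted p up to 0.180, without Smart-seq2 B). The count of lower members was 33 without Smart-seq / C1 A, 8 without Smart-seq2 A and 6 without Smart-seq2 B, and that of higher members 4 without Smart-seq / C1 A. The 6 calls that held without any 1 library were Cox5a, Cox8a, Cox6b2, Ndufv3, Ndufa4l2 and Atp5g3. Limma on means of cells gave 1 higher and 15 lower members, against 1.81% and 13.2% of all genes.

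Within Smart-seq / C1 the replicates themselves differed by length. Of the 48 members of up to 1000 nt, 44 were lower in B than in A, with a median log2 ratio of -0.63, and of the 32 longer members 9 were, with a median of 0.37. Over all genes tested, 6249 of 14293 were lower in B, with a median log2 ratio of 0.08. Genes outside the members were not split by length for this ratio, so whether short genes in general fell in B was not tested. Uqcr10, the small subunit most abundant in complex III, had 478 and 142 CPM in A and B, and Atp5f1, of the peripheral stalk, 377 and 823 CPM. The part of this split in the other comparisons was not tested.

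Among tag methods, IVT against PCR amplification gave 15 higher and 17 lower members, and 48 that did not pass. Over all genes tested, 9.14% were higher and 12.9% lower. The members' median log2 fold change was 0.03, against -0.08 over all genes. The IVT and PCR libraries did not overlap for 13 of the 80 members, and for 1966 of the 14293 genes tested. Complex II held 2 higher and 0 lower, complex III 0 higher and 3 lower, complex I 8 and 7, complex IV 3 and 3, and complex V 2 and 4. Ndufa4l2, a relative of Ndufa4 known to be induced by hypoxia, was higher, with 133 and 14.8 CPM in CEL-seq2 and 44.8 and 37.7 CPM in MARS-seq, against 3.31 and 3.24 CPM in Drop-seq and 3.56 and 2.33 CPM in SCRB-seq (log2 fold change 4.13 ± 0.63, adjusted p = 0.000206). Each IVT library lay above each PCR library for this gene, although CEL-seq2 A and B were far apart.

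Sdhc was higher too, with 168 and 207 CPM in CEL-seq2 and 258 and 245 CPM in MARS-seq, against 81.5 and 115 CPM in Drop-seq and 101 and 97.7 CPM in SCRB-seq (log2 fold change 1.14 ± 0.22, adjusted p = 0.00166). Ndufa7, an accessory subunit, had 519 to 635 CPM in IVT and 219 to 398 CPM in PCR libraries (log2 fold change 0.96 ± 0.22, adjusted p = 0.00454). For both genes the sides did not overlap. Atp5mpl, a small proteolipid of the ATP synthase, was lower, with 171 and 187 CPM in CEL-seq2 and 66.3 and 9.42 CPM in MARS-seq, against 402 and 409.6 CPM in Drop-seq and 298 and 389 CPM in SCRB-seq (log2 fold change -2.22 ± 0.36, adjusted p = 0.000344). All 4 IVT libraries lay below the PCR libraries, and MARS-seq lay lowest.

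Cox5b, the zinc-binding subunit, was lower on average (log2 fold change -1.47 ± 0.26, adjusted p = 0.000659), yet only CEL-seq2 lay below the PCR libraries. It had 32.9 and 28.1 CPM in CEL-seq2 and 516 and 478 CPM in MARS-seq, against 299.7 and 194 CPM in Drop-seq and 505 and 430.3 CPM in SCRB-seq. Cox7a2 had 117 to 427 CPM in IVT and 453 to 738 CPM in PCR libraries, with no overlap (log2 fold change -1.35 ± 0.25, adjusted p = 0.000971). Ndufa4 had 366 to 492 CPM in IVT and 625 to 891 CPM in PCR libraries (log2 fold change -0.85 ± 0.21, adjusted p = 0.00922), and lost its call without Drop-seq B (adjusted p = 0.0684).

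In other lower calls the IVT methods differed from each other. Uqcrb (log2 fold change -1.56 ± 0.30, adjusted p = 0.0013) had 323 and 418 CPM in CEL-seq2 and 41.2 and 10.6 CPM in MARS-seq, against 247 to 324 CPM in PCR libraries, so that MARS-seq alone lay below them. Uqcr10 (log2 fold change -1.46 ± 0.29, adjusted p = 0.00196) had 113 and 133 CPM in CEL-seq2 and 732 and 591 CPM in MARS-seq, against 642 to 907 CPM in PCR libraries. Atp5j (log2 fold change -1.07 ± 0.20, adjusted p = 0.00123) had 63.3 and 62.6 CPM in CEL-seq2 and 729 and 697 CPM in MARS-seq, against 304 to 657 CPM in PCR libraries. CEL-seq2 was far the lower IVT method for both, and the MARS-seq libraries of Atp5j lay above all PCR libraries. Ndufb7 (log2 fold change -1.23 ± 0.29, adjusted p = 0.00596) had 84.4 and 83.0 CPM in CEL-seq2 and 204 and 218 CPM in MARS-seq, against 209 to 396 CPM in PCR libraries.

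Higher calls in this comparison were fragile. Sdhb (adjusted p = 0.0498), Cox6a1 (0.0419), Cox8a (0.0325), Atp5c1 (0.0237) and Atp5g3 (0.0283) each lost the call in at least 6 of the 12 fits without 1 library, with adjusted p up to 0.130, 0.169, 0.130, 0.110 and 0.119. The 15 higher members became 8 and 7 without CEL-seq2 A and B, 7 and 6 without MARS-seq A and B, 6 and 7 without Drop-seq A and B, 5 without either SCRB-seq library and 9 without either Smart-seq2 library, which enter through the shared spread. In all, 16 of the 32 calls held without any 1 library. Limma on means of cells gave 9 higher and 18 lower members, against 9.82% and 17.2% of all genes.

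Between the IVT methods, CEL-seq2 against MARS-seq, 5 members were higher, 39 lower and 36 did not pass. Of all genes tested, 11% were higher and 12.4% lower. The median log2 fold change was -0.98 for the members, against 0.19 for all genes. Complex I had 2 higher and 18 lower members, complex II 0 and 2, complex III 1 and 3, complex IV 1 and 7, and complex V 1 and 9. Cox7c had 56.5 and 33.0 CPM in CEL-seq2 A and B, against 2065 and 1593 CPM in MARS-seq A and B (log2 fold change -5.38 ± 0.41, adjusted p = 1.47e-07). Cox5b had 32.9 and 28.1 CPM in CEL-seq2 and 516 and 478 CPM in MARS-seq (log2 fold change -4.04 ± 0.40, adjusted p = 1.77e-06). For both genes the replicates of a method lay far closer to each other than to the other method.

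Atp5j, of the peripheral stalk, had 63.3 and 62.6 CPM in CEL-seq2 and 729 and 697 CPM in MARS-seq (log2 fold change -3.50 ± 0.31, adjusted p = 5.41e-07). Its annotated copy Gm11966 had 96.2 and 162 CPM in CEL-seq2 and 179 and 171 CPM in MARS-seq, so the size of this fold depends on how reads were placed. Ndufa1, a short accessory subunit encoded on the X chromosome, had 22.8 and 24.6 CPM in CEL-seq2 and 251 and 258 CPM in MARS-seq (log2 fold change -3.42 ± 0.35, adjusted p = 2.73e-06). Uqcr11 had 21.1 and 38.3 CPM in CEL-seq2 and 467 and 532 CPM in MARS-seq (log2 fold change -4.04 ± 0.50, adjusted p = 1.75e-05). The libraries of the methods did not overlap for any of these members. That held for 8833 of the 14293 genes tested as well. Ndufs5 (log2 fold change -5.97 ± 0.67, adjusted p = 6.06e-06), Uqcr10 (log2 fold change -2.42 ± 0.43, adjusted p = 0.000577), Sdhd (log2 fold change -1.55 ± 0.34, adjusted p = 0.00333) and Sdhb (log2 fold change -1.33 ± 0.33, adjusted p = 0.00712) were lower in CEL-seq2 too. Sdhb lost its call without CEL-seq2 A (adjusted p = 0.0548).

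Few counts limit some of these values. Ndufs5 had 1 and 6 counts in CEL-seq2 A and B, against 70 and 81 in MARS-seq A and B. Atp5g2 had 0 counts in CEL-seq2 and 28.7 ± 2.65 CPM in MARS-seq (SD, n = 2), at least 38.5-fold lower in CEL-seq2 with a floor of 3 counts over its libraries. Atp5l, a membrane subunit, had 3 counts in CEL-seq2 and 326 in MARS-seq, a ratio of 270.0 in unscaled CPM, MARS-seq over CEL-seq2 (95% interval 91.5 to 1320, exact, counting error only). Atp5g2 and Atp5l have 3' ends that recur in the genome, all 31-base words of Atp5g2 and 88.9% of those of Atp5l.

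Members higher in CEL-seq2 included Uqcrb, the ubiquinone-binding small subunit of complex III, at 323 and 418 CPM in CEL-seq2 and 41.2 and 10.6 CPM in MARS-seq (log2 fold change 3.92 ± 0.46, adjusted p = 1.08e-05). Ndufs1, the largest core subunit of complex I, had 255 and 273 CPM in CEL-seq2 and 41.2 and 68.3 CPM in MARS-seq (log2 fold change 2.25 ± 0.41, adjusted p = 0.000775). Atp5mpl had 171 and 187 CPM in CEL-seq2 and 66.3 and 9.42 CPM in MARS-seq (log2 fold change 2.33 ± 0.53, adjusted p = 0.00433). For Uqcrb and Atp5mpl it was MARS-seq that stood below all other tag libraries. Ndufa10 (log2 fold change 1.49 ± 0.34, adjusted p = 0.00458) lost its call without MARS-seq A (adjusted p = 0.0724) and Cox6b2 (log2 fold change 2.32 ± 0.55, adjusted p = 0.00562) without CEL-seq2 A (adjusted p = 0.0984), and the higher members were 3 without MARS-seq A.

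Lower calls fell on both sides of the 50% line for repeated 3' ends. Among the 15 members above it, 9 were lower and 1 higher in CEL-seq2, with a median log2 fold change of -1.24, and among the other 65, 30 were lower and 4 higher, with a median of -0.95. Adding the annotated copies to their members left 5 higher and 37 lower. Of the 44 calls, 27 held without any 1 library. In limma on the means of cells, where the median of all genes was 0.85, 10 members were higher and 25 lower, against 36.9% and 8.48% of all genes, and complex III turned to a median of 0.05.

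Between the PCR tag methods, Drop-seq against SCRB-seq, 0 members were higher and 1 was lower by edgeR. Of all genes tested, 1.03% were higher and 0.483% lower. At an unadjusted p below 0.05, 0 members were higher and 21 lower, against 9.33% and 8.79% of all genes. DESeq2 called 0 higher and 3 lower, against 5.37% and 1.11% of all genes. The members' median log2 fold change was -0.43, against -0.09 over all genes, and 65 of the 80 lay below 0, against 54.1% of all genes. Cox8a was the 1 called, with 477 and 293 CPM in Drop-seq A and B, against 1041 and 1221 CPM in SCRB-seq A and B (log2 fold change -1.55 ± 0.35, adjusted p = 0.0327). Its libraries did not overlap, as for 7282 of the 14293 genes tested. The call ended in 8 of the 12 edgeR fits without 1 library, with an adjusted p of up to 0.289 without Drop-seq B.

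The count of lower members was 9 and 10 without Smart-seq / C1 A and B, and 0 without either library of Smart-seq2, MARS-seq, SCRB-seq or Drop-seq. With limma on the means of log2(CPM + 1) over cells, 31 were lower and 0 higher, against 25.3% and 3.18% of all genes. That scale gave all genes a median of -0.82, and the members' median was -0.89 there.

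Any difference between the 6 methods was called in 74 of the 80 members, against 65.4% of all genes tested. The 6 that did not pass were Ndufb10, Uqcrh, Cox4i2, Cox6a1, Cox7a1 and Atp5s. Cox6a1, the common form of subunit 6a, had 944 and 480.3 CPM in Smart-seq / C1 A and B and 579 and 613 CPM in Smart-seq2 A and B, against 376 to 1057 CPM in the 8 tag libraries (median 707). Uqcrh had 260.3 and 213 CPM in Smart-seq / C1 A and B and 334 and 334 CPM in Smart-seq2 A and B, against 192 to 425 CPM in the 8 tag libraries (median 349). A p that misses the threshold does not show equal levels, and Cox6a1 still spanned 376 to 1057 CPM over the libraries.

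Complex IV has tissue-bound twins for several subunits, and the common form led in each family. Cox4i2, the lung form of subunit 4, had 1.71 and 0.699 CPM in Smart-seq / C1 A and B and 2.55 and 4.74 CPM in Smart-seq2 A and B, against 31.2 and 3.03 CPM in CEL-seq2 A and B and 0 to 5.58 CPM in the other tag libraries. Cox6b2, the testis form of subunit 6b, had 22.2 and 8.13 CPM in Smart-seq / C1 A and B and 69.8 and 78.4 CPM in Smart-seq2 A and B, against 27.5 to 374 CPM in the 8 tag libraries (median 64.4) (log2 fold change -1.25 ± 0.33, adjusted p = 0.00489). Cox6b1, its common form, had 368 and 212 CPM in Smart-seq / C1 A and B and 603 and 687 CPM in Smart-seq2 A and B, against 353 to 859 CPM in the 8 tag libraries (median 526) (log2 fold change -0.32 ± 0.20, adjusted p = 0.186). The testis form stayed below the common form in every library, closest in CEL-seq2 A, and its call ended without Smart-seq2 A (adjusted p = 0.0542).

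Cox7a1, the heart and muscle form of subunit 7a, had 42.7 and 14.1 CPM in Smart-seq / C1 A and B and 44.2 and 45.6 CPM in Smart-seq2 A and B, against 20.5 to 111 CPM in the 8 tag libraries (median 58.2) (log2 fold change -0.71 ± 0.34, adjusted p = 0.0935). Cox7a2, the common form, had 268 and 185 CPM in Smart-seq / C1 A and B and 459 and 487 CPM in Smart-seq2 A and B, against 117 to 738 CPM in the 8 tag libraries (median 440.4) (log2 fold change -0.15 ± 0.21, adjusted p = 0.601). Cox7a2l, a relative that helps join complexes III and IV into larger assemblies, had 65.6 and 97.2 CPM in Smart-seq / C1 A and B and 86.1 and 91.3 CPM in Smart-seq2 A and B, against 125 to 277 CPM in the 8 tag libraries (median 180.1) (log2 fold change -1.15 ± 0.21, adjusted p = 0.000193). Cox7b had 383 and 168 CPM in Smart-seq / C1 A and B and 355 and 394 CPM in Smart-seq2 A and B, against 223 to 1021 CPM in the 8 tag libraries (median 444) (log2 fold change -0.59 ± 0.23, adjusted p = 0.0371). The rare forms Cox6a2, Cox7b2 and Cox8c stayed at or under 3.37, 8.10 and 5.58 CPM in every library, and Cox8b had no count.

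Ndufa4 is named for complex I and is now counted with complex IV. The counts for complex I given here group it and Ndufa4l2 by symbol. It had 417 and 409 CPM in Smart-seq / C1 A and B and 444 and 549.7 CPM in Smart-seq2 A and B, against 366 to 891 CPM in the 8 tag libraries (median 558), and did not pass (log2 fold change -0.35 ± 0.18, adjusted p = 0.133). Ndufa4l2, its relative, had 0.664 and 0.953 CPM in Smart-seq / C1 A and B and 23.9 and 27.6 CPM in Smart-seq2 A and B, against 2.33 to 133 CPM in the 8 tag libraries (median 9.17) (log2 fold change -1.51 ± 0.51, adjusted p = 0.0202), a call that ended in 6 of the 12 fits without 1 library (adjusted p up to 0.0910). Between the full-length methods it fell in Smart-seq / C1 (log2 fold change -4.98 ± 0.81, adjusted p = 0.000583). In CEL-seq2 A it was spread over 31 of 34 cells, with 15 counts at most in any of them, whereas in Smart-seq2 A it was in 24 of 80 cells and 1 cell held 27.1% of its reads.

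Among the cells of a library, most subunits lay below the trend of variation on level, and few passed the test. Variation was taken as the squared coefficient of variation (CV) in cells thinned to 10000 counts, on a log2 scale, less the loess trend on the mean. Only genes averaging 0.2 thinned counts or more in each library entered. Of the 66 members tested, 0 were more and 5 less variable than the trend (limma over 12 libraries, Benjamini-Hochberg adjustment over 2653 genes), against 1.73% and 3.58% of all genes tested. At an unadjusted p below 0.05, 0 were more and 21 less variable, against 6.9% and 11.3% of all genes. The median residual was -0.12 for members, against -0.01 for all genes, and 59 of 66 members lay below the trend, against 52.1% of all genes.

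The thinning is a random draw, and 5 other draws, chosen after seeing the data, gave 5 to 10 less and 0 more variable members. The other draws called 1 to 3 members of complex I each, and called Cox6b1 in 4 and Ndufa7 in 3 of 5. The 5 less variable members in the draw reported were 3 of complex IV and 2 of complex V. Cox6c had a residual of -0.47 ± 0.09 (SE, adjusted p = 0.00122, limma) and lay below the trend in 12 of 12 libraries. Atp5g3 had -0.46 ± 0.10 (adjusted p = 0.00423, limma), below it in 11 of 12. Cox8a had -0.46 ± 0.12 (adjusted p = 0.0157, limma), also in 11 of 12. Atp5b had -0.44 ± 0.09 (adjusted p = 0.00378, limma) and was below the trend in all 12, and Cox5b had -0.32 ± 0.09 (adjusted p = 0.0385, limma) and was below it in 10. Atp5b and Atp5g3 were called in all 5 other draws, Cox8a in 3, and Cox6c and Cox5b in 2 each, with adjusted p up to 0.736, 0.103 and 0.126 for Cox8a, Cox6c and Cox5b. The highest residuals were those of Ndufs1 (0.16 ± 0.11), Sdhd (0.11 ± 0.13) and Ndufv2 (0.09 ± 0.12). None of them passed, and each was below 0 in at least 1 other draw.

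By complex, the median residual was -0.20 in complex IV and -0.18 in complex V, where all 11 and all 13 members tested lay below the trend. It was -0.13 in complex III, -0.10 in complex I and 0.00 in complex II, whose 4 members were split evenly. In the other draws the medians were -0.30 to -0.18 in complex IV, -0.25 to -0.15 in complex V and -0.07 to 0.05 in complex II. The count of 5 was 3 without Smart-seq / C1 B or without Smart-seq2 B and 8 without MARS-seq A. It was 2 in cells thinned to 5000 counts.

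**Figure D5:**
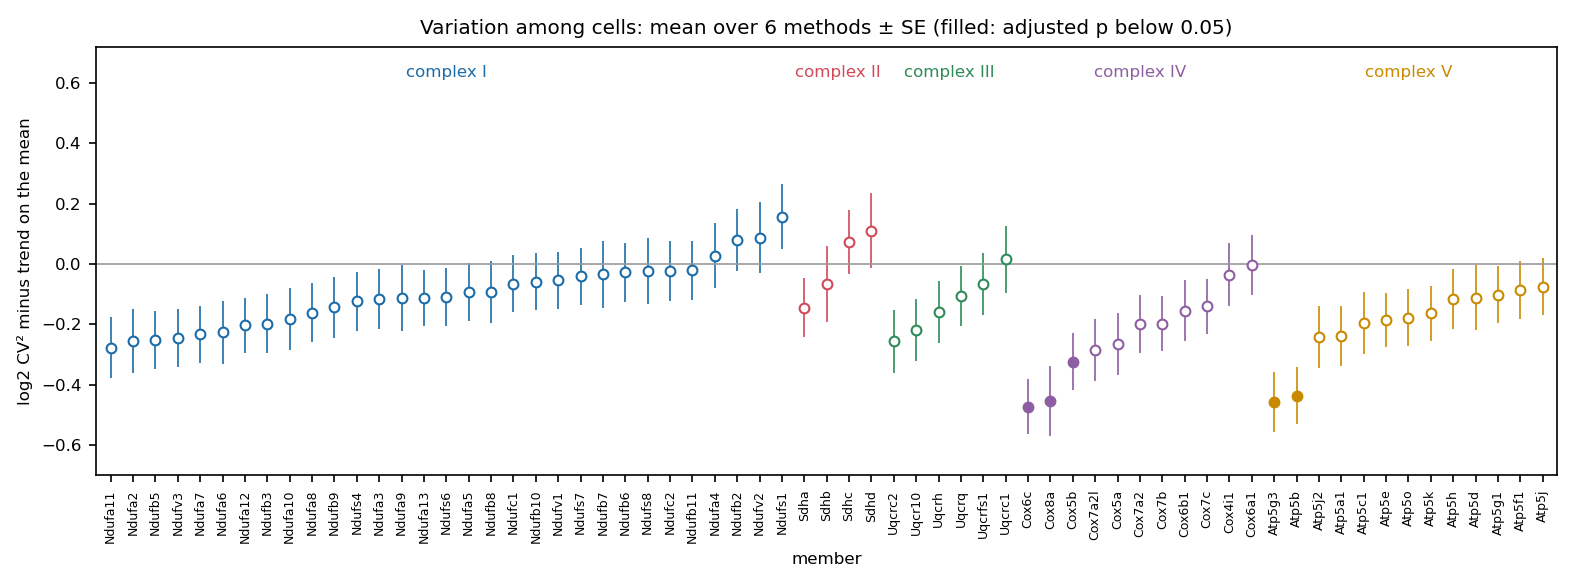
Log2 squared coefficient of variation among cells less the trend on the mean (y axis) for 65 of the 66 members tested (x axis, grouped by complex), as the average of 6 method means with its SE. Filled points passed at an adjusted p below 0.05 in limma; most members lie below 0, and all 13 of complex V do.

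Summed over the members, the CV among cells was above that of counting alone. Counting here is the Poisson error of the thinned counts, which leaves out capture and amplification, and in the full-length libraries these counts are PCR reads and not molecules. The sum over all members had a median of 169 to 304 counts in a thinned cell and a CV of 0.0951 to 0.147 among cells (median 0.122), where counting alone gives 0.0569 to 0.0763 (median 0.0621). The CV left after taking off the counting part was 0.122 for complex I, 0.168 for complex III, 0.148 for complex IV and 0.120 for complex V, as medians over 12 libraries, where counting gives 0.112, 0.203, 0.132 and 0.111 in that order. It was 0.283 for complex II, with 0.42 from counting, whose sum had a median of only 3 to 14 counts per cell.

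The sums of different complexes rose and fell together only weakly. Over 10 pairs of complexes in 12 libraries, 94 of 120 Spearman correlations among cells were above 0, with a median of 0.15 and a range of -0.27 to 0.50. These are descriptions within thinned cells of 29 to 80 a library, which share a fixed total and counting error, and carry no test. Complexes I and IV had a median of 0.30, IV and V 0.23 and I and V 0.22, and at 5000 counts these were 0.18, 0.18 and 0.19. By library, the medians over the 10 pairs ran from -0.05 in Drop-seq A to 0.38 in Smart-seq2 B. At 5000 counts Drop-seq A had 0.12 and Smart-seq2 B had 0.15, so no order of libraries is read from them. The sum of all members and that of the mitochondrially encoded subunits had a median correlation of -0.01, from -0.38 to 0.37, and a median of -0.12 at 5000 counts.

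Other mitochondrial genes were counted in the same fits. Of the 13 citric acid cycle enzymes, 11 were higher and 0 lower in full-length libraries, against 25.6% and 23.2% of all genes tested, with a median log2 fold change of 0.78. Sucla2, of succinate-CoA ligase, averaged 205 ± 107 CPM in full-length and 79.0 ± 11.1 CPM in tag libraries (log2 fold change 1.29 ± 0.20, adjusted p = 3.70e-05). Mdh2, malate dehydrogenase, averaged 918 ± 112 CPM in full-length and 486 ± 155 CPM in tag libraries (log2 fold change 0.97 ± 0.17, adjusted p = 0.000138). In CEL-seq2 against MARS-seq, 4 of these enzymes were higher and 0 lower, against 11% and 12.4% of all genes, with a median of 0.28 where the members had -0.98. In Smart-seq / C1 against Smart-seq2, in IVT against PCR and in Drop-seq against SCRB-seq, 1, 3 and 0 were higher and 0 were lower, against 8.75%, 9.14% and 1.03% of all genes higher and 6.81%, 12.9% and 0.483% lower. These shares of all genes hold for the lists that follow as well.

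Of 49 assembly factors tested, which build the complexes without staying in them, 14 were higher and 9 lower in full-length libraries, against 25.6% and 23.2% of all genes, with a median log2 fold change of 0.21 in the list and over all genes. Cox20, a chaperone of complex IV, was at 2.57 ± 0.387 CPM in full-length and 54.3 ± 16.8 CPM in tag libraries (log2 fold change -4.35 ± 0.33, adjusted p = 4.53e-09), and Cox17, a copper carrier, at 34.7 ± 8.11 CPM and 216 ± 74.3 CPM (log2 fold change -2.56 ± 0.23, adjusted p = 3.67e-08). In CEL-seq2 against MARS-seq, 4 were higher and 5 lower, among them Lrpprc, which stabilises mitochondrial mRNA (2.29 ± 0.39, adjusted p = 0.000377). In Smart-seq / C1 against Smart-seq2, in IVT against PCR and in Drop-seq against SCRB-seq, 2, 5 and 0 were higher and 5, 4 and 1 lower. Of 10 regulators of mitochondrial biogenesis tested, 4 were higher and 1 lower in full-length libraries, led by Pprc1 (log2 fold change 0.998 ± 0.22, adjusted p = 0.00122) and Gabpa (0.86 ± 0.24, adjusted p = 0.00553). In the other 4 comparisons the smallest adjusted p of this list was 0.0730, that of Gabpb1 in CEL-seq2 against MARS-seq.

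Subunits and carriers that the symbol rule misses were mostly lower, with 1 higher and 4 lower of 5 in full-length libraries. Cycs, cytochrome c, averaged 9.82 ± 9.21 CPM in full-length and 124 ± 40.3 CPM in tag libraries (log2 fold change -3.77 ± 0.38, adjusted p = 1.75e-07), and Ndufab1, the acyl carrier of complex I, 54.6 ± 10.2 CPM and 173 ± 113 CPM (log2 fold change -1.39 ± 0.20, adjusted p = 1.82e-05). In CEL-seq2 against MARS-seq, 0 were higher and 3 lower, with a median of -2.35, among them Usmg5, a small ATP synthase subunit (-3.28 ± 0.41, adjusted p = 2.12e-05).

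Of the 13 subunit genes of mitochondrial DNA, 9 were tested, and the others did not pass the filter on low counts. Of those tested, 3 were higher and 3 lower in full-length libraries. mt-Nd3 and mt-Nd4l had 0 counts in all 4 full-length libraries. In tag libraries they averaged 769 ± 1110 and 494 ± 307 CPM (SD). Against these averages they were at least 26500-fold and 17000-fold lower, with a floor of 3 counts over the full-length libraries. By method, mt-Nd3 averaged 2380 CPM in CEL-seq2, 5.35 CPM in MARS-seq, 601 CPM in Drop-seq and 85.7 CPM in SCRB-seq. mt-Nd4l averaged 132 CPM in Drop-seq and 481 CPM in SCRB-seq. The bounds therefore hold for the averages over tag libraries and not for each tag method. The counter and annotation behind the full-length reads are not given in the sources used here, so 0 counts are not read as absent RNA. In CEL-seq2 against MARS-seq, 6 of the 9 genes tested were higher and 0 lower. Their median log2 fold change was 2.71, where 39 of the 80 nuclear members were lower. mt-Nd4, of complex I, averaged 33000.0 ± 2560.0 CPM in CEL-seq2 and 2960.0 ± 2680.0 CPM in MARS-seq (SD, n = 2 each; log2 fold change 3.48 ± 0.51, adjusted p = 9.56e-05).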

How the data were processed

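The authors deposited 1 table of counts, reads for Smart-seq / C1 and Smart-seq2 and UMIs for the other methods, for 583 cells, 38924 mouse genes and 92 ERCC spike-ins. Per the submitters' processing notes it was made with bcl2fastq, STAR 2.4.0 and mm10; counting of multiply placed reads and strand use are not given in the sources used here. Counts were summed over the cells of each of the 12 libraries. In edgeR 4.0.16 (R 4.3.3) the quasi-likelihood test used TMM, filterByExpr, 1 mean per method and Benjamini-Hochberg adjustment over 14293 of the 26619 genes with a count, with a threshold of 0.05. Common biological variation was 0.418 with 6 residual degrees of freedom. In data simulated for full-length against tag methods, 100 genes changed 2-fold and 100 changed 4-fold among 14293. Of these, 26% and 84% were called, and 0.0355% of unchanged genes. All genes had the same biological variation there. In the real comparison 6975 genes passed, so these rates do not carry over to it. Alternatives were DESeq2 1.42.0 and its size factors, limma 3.58.1, no filter, each library left out and members with shared sequence left out. Intervals and floors (3 counts) cover counting error only. Variation among cells used cells thinned to 10000 counts and a loess trend (span 0.5). No doublet caller was run, and doublet removal is not given in the sources used here. Lengths, exons and copies came from GENCODE M21 and GRCm38, and promoters from RefSeq. 23 members overlap an exon of an antisense gene and 4 one on the same strand. Members, lists and tests were chosen with earlier results of these data known. Members named with full values were, for each complex and comparison, up to 2 with the smallest p per direction, the most and least abundant, the Sdh genes, isoform families and the extremes of variation; others given with values were chosen after these were seen, and 1 result is not reported here.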

Additional observations from a re-analysis of the deposited data

Results flagged for a closer look

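Of 40 groups of libraries tested for a value far from the rest, 4 were flagged, where chance flags about 1 in 20. All 4 concern tissue or hypoxia forms of subunits. In CEL-seq2 A, Ndufa4l2 had 133 CPM, against 2.33 to 44.8 CPM in the other 7 tag libraries, and Cox4i2 had 31.2 CPM, against 0 to 5.58 CPM. Cox6b2 had 374 CPM in CEL-seq2 A, against 27.5 to 153 CPM in the other tag libraries. These counts were spread over cells: Ndufa4l2 was seen in 31 and Cox4i2 in 20 of the 34 cells of CEL-seq2 A. That library also held the highest sums of fibroblast markers (39.7 CPM) and primitive endoderm markers (21.9 CPM). Of the fibroblast sum, 32.9 CPM came from Thy1. Col1a1 was also highest there, but Col1a2, Col3a1 and Dcn were highest in other libraries and Postn was at 0 throughout. The primitive endoderm markers Gata4, Gata6, Sox17 and Pdgfra were each highest in CEL-seq2 A, at 9.28, 5.06, 1.69 and 5.91 CPM. Of the naive markers, Zfp42 was lowest there (92.0 CPM) and Sox2 highest (1220 CPM). The part of these markers in the flagged levels was not tested. In Smart-seq / C1 B, Cox7a1 had 14.1 CPM, against 42.7 to 45.6 CPM in the other 3 full-length libraries.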

How the results depend on the processing

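Leaving out 1 library at a time, the members higher and lower ranged from 13 to 21 and 19 to 35 (full-length against tag), 1 to 4 and 6 to 33 (Smart-seq / C1 against Smart-seq2), 5 to 20 and 12 to 22 (IVT against PCR), 3 to 6 and 26 to 46 (CEL-seq2 against MARS-seq) and 0 to 0 and 0 to 10 (Drop-seq against SCRB-seq). Any difference was called in 66 to 77 members, and 0 to 0 were more and 3 to 8 less variable among cells. Limma on means of cells gave 23 higher and 17 lower (full-length against tag), 9 higher (IVT against PCR), 10 higher and 25 lower (CEL-seq2 against MARS-seq) and 31 lower (Drop-seq against SCRB-seq). With it, the share of all calls that were higher was 70%, 12%, 36.4%, 81.3% and 11.2% in the 5 comparisons, against 52.4%, 56.2%, 41.6%, 47.0% and 68.1% by edgeR. DESeq2 size factors moved it to 86.2% in the last, where they left 0 members lower, DESeq2 3 and no filter 2. No filter left 9 higher in IVT against PCR. Among the 51 members that share under 10% of their 31-base words with another gene, 16, 9 and 20 were lower in full-length against tag, IVT against PCR and CEL-seq2 against MARS-seq, and 46 differed between methods; here fewer members were counted. Less variable members were 2 at 5000 counts and 7, 7, 10, 9 and 5 in 5 other thinning draws, chosen after seeing the data, in one of which the spread beyond counting of complex III was 0.211, against 0.168; joining Drop-seq barcodes left 5. The share of all counts, full-length less tag, in percentage points, was -0.0543 for complex I, -0.161 without mitochondrial and ribosomal protein genes, 0.0129 without uncertain members, and 0.681 and 0.887 per longest and principal length. Per longest and principal length it was 0.104 and 0.0895 for complex II, 0.365 and 0.415 for III, 0.623 and 0.614 for IV and 0.513 and 0.645 for V. Without mitochondrial and ribosomal protein genes it was -0.335 for IV and 0.029 for V, and without uncertain members -0.11 and 0.185. The members' median log2 fold change of -0.32 turned to 1.01 and 1.42 against the length trends. The cause of these shifts was not tested. The replicate letters did not pair libraries (correlations of B less A between methods -0.0839 to 0.0781), and with a replicate block the counts were 14 and 33, 1 and 16, 12 and 16, 5 and 39, and 0 and 1, with 71 differing and 5 less variable. Depth limits rare forms and complex II, with a median of 3 to 14 counts in a thinned cell.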
